A study of Homo sapiens with 8 samples.

Results

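The 10 genes described here encode antiviral effectors of the interferon response. They are the IFIT family members IFIT1, IFIT2, IFIT3 and IFIT5, the IFITM family members IFITM1, IFITM2 and IFITM3, and IFI6, ISG15 and BST2. They were picked by symbol from the 39533 rows of the deposited count table, after earlier results had shown IFIT1, IFI6 and BST2 lower in self-seeded cells than in primary tumour cells. All 10 have a row, and all 10 passed the filter on low counts that left 14255 genes to test. IFITM1 is highest in the primary tumour cells and had few counts in the self-seeded cells. Since the same comparisons led to the choice of genes, their differences are given as a description, with no p-value.

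RNA was sequenced from cells of HCT116, an established line from human colorectal cancer, which had been put through a self-seeding model, where tumour cells that circulate come back to a tumour. Tumour self-seeded cells (TSC, n = 3) and primary tumour cells (PC, n = 3) are both labelled as taken from the primary tumour, and circulating tumour cells (CTC, n = 2) as taken from blood. No drug, gene edit or time point is named for any group, and all 8 libraries carry the same cell line label, so that the groups differ by cell subtype and, for CTC, also by tissue. The title of the series speaks of liver cancer, at odds with the cell line. The sources used here do not give the host animal, how the cells were told apart, or whether replicates came from separate animals. The spread between replicates may therefore be technical. In bulk RNA, fewer cells of an expressing type and less RNA per cell cannot be told apart.

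Type I and type III interferons bind receptors on the cell surface and act through the JAK1 and TYK2 kinases. These kinases activate STAT transcription factors, among them STAT2, which with IRF9 takes part in a complex that binds the interferon-stimulated response element (ISRE) in promoters of the genes it turns on. IFIT proteins bind viral RNA and block its translation, IFITM proteins sit in membranes and restrict the fusion of viruses with the cell, ISG15 is a ubiquitin-like protein that is attached to other proteins, BST2 (tetherin) holds budding virions at the cell surface, and IFI6 is a small membrane protein induced by type I interferon. Several of these genes are also transcribed at a low level in tumour cells without infection.

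The genes lie in 5 places of the genome, given here by the RefSeq annotation of GRCh38, the build that the submitters' processing notes name as hg38. The 4 IFIT genes share 1 cluster on chromosome 10, with IFIT2 at chr10:89302046-89309271, IFIT3 at chr10:89327997-89340968, IFIT1 at chr10:89392623-89406487 and IFIT5 at chr10:89414568-89420997. The 3 IFITM genes lie side by side on chromosome 11, with IFITM2 at chr11:307816-309395, IFITM1 at chr11:314040-315272 and IFITM3 at chr11:319676-320860. IFI6 lies at chr1:27666064-27672192, ISG15 at chr1:1013497-1014540 and BST2 at chr19:17402939-17405630.

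Promoter windows from 250 bases before to 50 bases after a start site were taken from RefSeq (GRCh38.p14) and matched 8 of the 10 genes, with 2 windows for IFIT3. The stretches below are those of 4 genes that were lower in TSC than in PC by the test across all genes and, for contrast, of IFITM3, which was not called. Each is upstream of the start site, 5′ to 3′ on the gene's strand, with every match to the ISRE core GAAANNGAAA or its reverse complement TTTCNNTTTC in capitals.
IFIT1, chr10:89392492-89392544, plus strand: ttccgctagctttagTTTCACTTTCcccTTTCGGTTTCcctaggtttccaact
IFI6, chr1:27672261-27672363, minus strand: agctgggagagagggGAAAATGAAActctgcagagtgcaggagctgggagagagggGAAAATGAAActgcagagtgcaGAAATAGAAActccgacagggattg
ISG15, chr1:1013369-1013414, plus strand: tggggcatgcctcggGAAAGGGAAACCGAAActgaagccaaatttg
BST2, chr19:17405730-17405775, minus strand: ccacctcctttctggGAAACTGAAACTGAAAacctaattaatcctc
IFITM3, chr11:320871-320927, minus strand: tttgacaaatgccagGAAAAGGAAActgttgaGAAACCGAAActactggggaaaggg
In ISG15 and BST2 a pair of matches overlaps, whereas in IFI6 the stretch holds 3 separate matches. Each of the 9 windows of the 8 genes holds 2 or 3 matches. Of all 35116 RefSeq windows of this length, 3.57% hold at least 1 match and 0.259% hold 2 or more. Genes that were not called hold them too, with 3 matches in the IFIT5 window and 2 in the IFITM3 window. The other element searched, the GAS core TTCNNNGAA of interferon gamma signalling, occurs 1 time in the IFITM1 window, 2 times in the BST2 window and 0 times in the others, against 7.66% of all windows with at least 1. A match to these letters is a description of the sequence and not a binding site.

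Total counts ran from 957607 in CTC replicate 1 to 19264595 in PC replicate 3. Levels are given in CPM, a gene's count divided by the library's total over tested genes and by its TMM factor and put on a common scale, and 3 counts, the floor used for a count of 0, were worth 0.156 to 2.99 CPM, the highest value in CTC replicate 1. This floor covers counting error only. Epithelial markers summed to 7975 to 9240 CPM in TSC, 5948 to 8001 CPM in PC and 5147 and 7618 CPM in CTC, with EPCAM, KRT8 and KRT18 high in all 8 libraries. CDX1 and LGALS4 were listed at 0 throughout, as were the housekeeping genes RPS25 and NDUFS1, and a listed 0 is therefore not read as absence of the transcript. Of 20 leukocyte markers 15 had a count in some library; they summed to 454 and 186 CPM in the 2 CTC libraries, against 23.0 to 29.6 CPM in PC and 36.1 to 54.5 CPM in TSC, while S100A8, S100A9, CD3E, NKG7 and AIF1 were at 0 in all libraries. The 8 erythroid markers, of which 2 were at 0 in all libraries, HBA2 among them, summed to 247 and 331 CPM in CTC, 50.4 to 63.3 CPM in PC and 80.4 to 93.5 CPM in TSC. The 10 fibroblast and endothelial markers, with DCN and LUM at 0, summed to 19 and 11.5 CPM in CTC, 30.5 to 70.5 CPM in PC and 12 to 112 CPM in TSC.

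Setting TSC against PC addresses how cells that returned to a tumour differ from its other cells. All 10 genes had a negative fitted difference, with 5 of them called lower in TSC and 0 called higher. The DESeq2 Wald test called 6 lower and 0 higher, where it called 0.765% and 0.575% of tested genes. Limma-voom also called 6 and 0, where it called 2.09% and 1.79% of tested genes. At an unadjusted p under 0.05 in edgeR 8 were lower and 0 higher, against 5.25% and 5.05% of tested genes. IFIT1, IFI6 and BST2 were 5.78-, 5.54- and 5.19-fold lower, IFITM1, with few counts in TSC, 12.3-fold and ISG15 2.17-fold. IFIT5 and IFITM2 lay within 1.12-fold of PC. A gene was called at an adjusted p under 0.05 over all tested genes in edgeR's quasi-likelihood test, and by this rule 0.281% of tested genes were called lower and 0.224% higher. In 7 of the 10 genes every TSC library lay below every PC library, as in 9.9% of tested genes, and in 0 genes was it the reverse, which held for 8.96% of tested genes. IFIT1, IFI6 and BST2, which led to the choice of the 10 genes, are among those counted as lower. The excess of these counts over the shares of all tested genes is therefore in part set by that choice. The median log2 difference of the 10 genes was −1.53, that of the 64 tested genes of the wider interferon pathway −0.39 and that of all tested genes 0.0063. The leukocyte and erythroid sums did not overlap between these groups either, being higher in TSC. Of 9 tested leukocyte markers 0 were called and 4 had a negative fitted difference. For the 4 tested erythroid markers these numbers were 0 and 1. Mean levels in TSC and PC were 0.34 and 0.34 CPM for HBB, 0.15 and 0.17 for PTPRC, 0.58 and 0.78 for LYZ and 0.65 and 0.27 for LCP1. The part of blood cells in the differences was not tested.

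**Figure D1:**
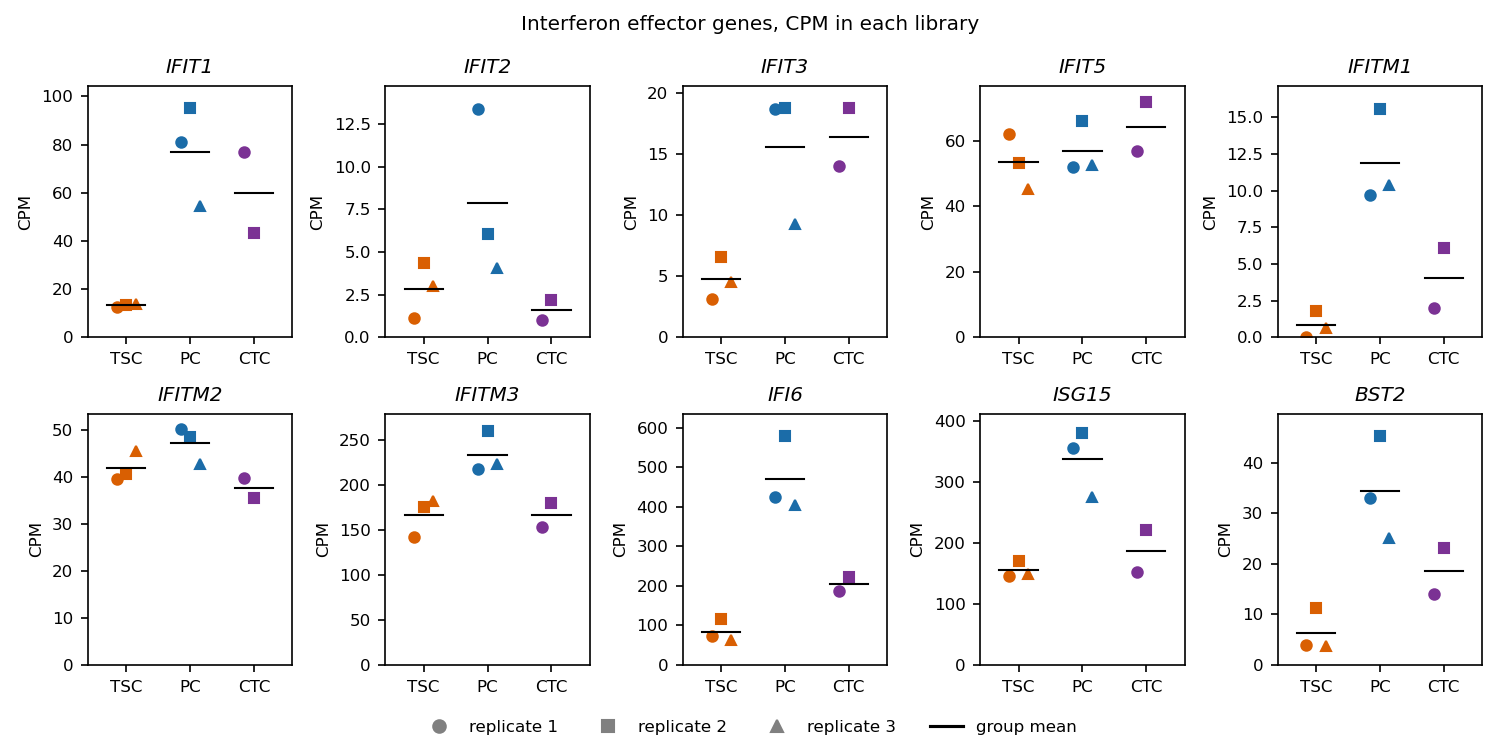
Level of each of the 10 genes in CPM (vertical axis, linear, from 0, with its own scale in each panel) in the TSC, PC and CTC libraries. Points are libraries, with the shape giving the replicate number, and bars are group means. The 3 TSC points of IFIT1 lie between 12.5 and 13.7 CPM, below all PC points, whereas the IFIT5 and IFITM2 points of TSC and PC overlap.

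In the IFIT family, IFIT1, which binds the 5′ end of foreign RNA, showed the most even TSC values. Its level was 12.5, 13.6 and 13.7 CPM in TSC, 81.3, 95.2 and 54.4 CPM in PC and 76.8 and 43.2 CPM in CTC. The TSC libraries lay below the other 5, and PC and CTC overlapped. The log2 difference was −2.53 ± 0.26 (SE) for TSC against PC, −0.43 ± 0.28 for CTC against PC and −2.10 ± 0.29 for TSC against CTC, and it was called in the first and the last.

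IFIT3, a partner of IFIT1 in a shared complex, gave 3.12, 6.56 and 4.52 CPM in TSC, 18.7, 18.8 and 9.29 CPM in PC and 14.0 and 18.8 CPM in CTC. As for IFIT1, all TSC libraries were below all others, and CTC and PC overlapped. Its log2 differences were −1.66 ± 0.35 against PC and −1.79 ± 0.40 against CTC, and neither was called. CTC differed from PC by 0.13 ± 0.39.

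IFIT2, whose product also binds RNA and has been linked to apoptosis, was the weakest of the family. It had 1.11, 4.38 and 2.98 CPM in TSC, 13.4, 6.07 and 4.05 CPM in PC and 0.997 and 2.19 CPM in CTC. TSC replicate 2 lay above PC replicate 3, so these groups overlapped, and CTC was below PC in both libraries. The CTC replicate 1 value is a single count, under the floor of that library. The log2 differences of −1.39 ± 0.55 for TSC against PC, −2.02 ± 0.74 for CTC against PC and 0.62 ± 0.73 for TSC against CTC were not called. Without PC replicate 1 the first was −0.80 and the second −1.42, and without CTC replicate 2 the second was −2.96 and the third 1.58.

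IFIT5 encodes an RNA-binding protein as well and lies in the same cluster. Its level was 61.9, 53.3 and 45.3 CPM in TSC, 52.0, 66.1 and 52.6 CPM in PC and 56.9 and 71.7 CPM in CTC. The 3 groups overlapped, and the log2 differences were −0.09 ± 0.19, 0.20 ± 0.22 and −0.30 ± 0.22 in the same order of comparisons. The difference between IFIT1 and IFIT5 in the size of their change was not tested.

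In the IFITM family, IFITM1, which acts at the plasma membrane, had the largest fitted difference of the 10 genes between TSC and PC and very few counts in TSC. Its counts were 0, 25 and 7 in TSC, 116, 169 and 200 in PC and 2 and 64 in CTC. In CPM these are 0, 1.76 and 0.633 in TSC, 9.72, 15.5 and 10.4 in PC and 1.99 and 6.10 in CTC. The 0 in TSC replicate 1 allows up to 0.668 CPM, and the 2 counts of CTC replicate 1 are under the floor of that library. Both CTC libraries lay below all PC libraries. TSC lay below CTC only by the margin between TSC replicate 2 and those 2 counts, which the depth does not resolve. The log2 difference was −3.62 ± 0.61 for TSC against PC, the called one, −1.28 ± 0.65 for CTC against PC and −2.34 ± 0.69 for TSC against CTC. Without CTC replicate 2 the last pair were −2.57 and −1.04, and without TSC replicate 2 TSC differed from CTC by −3.52.

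IFITM3, which restricts virus entry from endosomes, was the most abundant of the family. It reached 142, 176 and 182 CPM in TSC, 218, 260 and 223 CPM in PC and 154 and 180 CPM in CTC. Every PC library was above every TSC and CTC library, and TSC and CTC overlapped. The log2 differences of −0.49 ± 0.17 for TSC against PC and −0.48 ± 0.19 for CTC against PC were small and not called, and TSC differed from CTC by −0.01 ± 0.19.

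IFITM2, a close paralog of IFITM3, varied least. Its level was 39.7, 40.7 and 45.7 CPM in TSC, 50.3, 48.6 and 42.8 CPM in PC and 39.9 and 35.7 CPM in CTC. TSC and PC overlapped and both CTC libraries were below PC. The log2 differences were −0.17 ± 0.18, −0.34 ± 0.21 and 0.17 ± 0.21, with none called.

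The IFITM genes share sequence, so that reads can be split between them. Of the 50-base windows in the longest coding transcript (GENCODE v29), 42.3% for IFITM1, 20.3% for IFITM3 and 15.8% for IFITM2 occur also in transcripts of another gene, with 39% of the IFITM1 windows found in IFITM2. The share was 8.87% for IFIT2, 3.84% for IFIT3, 1.03% for IFIT1 and 0 for IFIT5, IFI6, ISG15 and BST2. The treatment of reads with several positions is not stated, so the split among IFITM1, IFITM2 and IFITM3 is uncertain.

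IFI6, an inhibitor of apoptosis in cell culture, was the only one of the 10 genes called in all 3 comparisons. It had 72.9, 117 and 63.5 CPM in TSC, 425, 579 and 404 CPM in PC and 187 and 222 CPM in CTC. The groups did not overlap and stood in the order TSC, CTC, PC. The log2 difference was −2.47 ± 0.23 for TSC against PC, −1.19 ± 0.26 for CTC against PC and −1.28 ± 0.25 for TSC against CTC.

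ISG15 separated PC from the other groups. Its level was 146, 171 and 148 CPM in TSC, 355, 381 and 276 CPM in PC and 152 and 222 CPM in CTC. All PC libraries were above all TSC and CTC libraries, and TSC and CTC overlapped. The log2 difference was −1.12 ± 0.19 for TSC against PC and −0.84 ± 0.21 for CTC against PC, both called, and −0.28 ± 0.21 for TSC against CTC.

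BST2 followed the order of IFI6 at a lower level. It gave 4.01, 11.2 and 3.8 CPM in TSC, 33.0, 45.3 and 25.1 CPM in PC and 14.0 and 23.1 CPM in CTC. The 3 groups did not overlap, and TSC replicate 2 was nearest to CTC. The value of CTC replicate 1 rests on 14 counts, so its separation from TSC replicate 2 is narrow for that depth. The log2 difference was −2.37 ± 0.38 for TSC against PC, which was called, −0.79 ± 0.43 for CTC against PC and −1.58 ± 0.44 for TSC against CTC, which was −2.37 without TSC replicate 2.

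The calls of IFIT1 and IFI6 for TSC against PC held with any single library left out, whereas those of the other genes did not. Without TSC replicate 3 or without PC replicate 2 only these 2 genes were called. Without PC replicate 1, 3 genes were called, BST2 being the third. IFITM1 and ISG15 lost their call in all 3 of these fits and BST2 in the first pair. IFIT3 was called without TSC replicate 2, without PC replicate 3 or without CTC replicate 1, with a log2 difference from −1.98 to −1.66. Without TSC replicate 2 the log2 difference of IFITM1 was −4.79 and that of BST2 −3.15. Over these fits the median of the 10 genes ran from −1.91 to −1.30. Calls over all tested genes changed as well. They fell from 72 to 16 of 14153 without TSC replicate 3, 10 of 14133 without PC replicate 2 and 25 of 14046 without PC replicate 1.

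**Figure D2:**
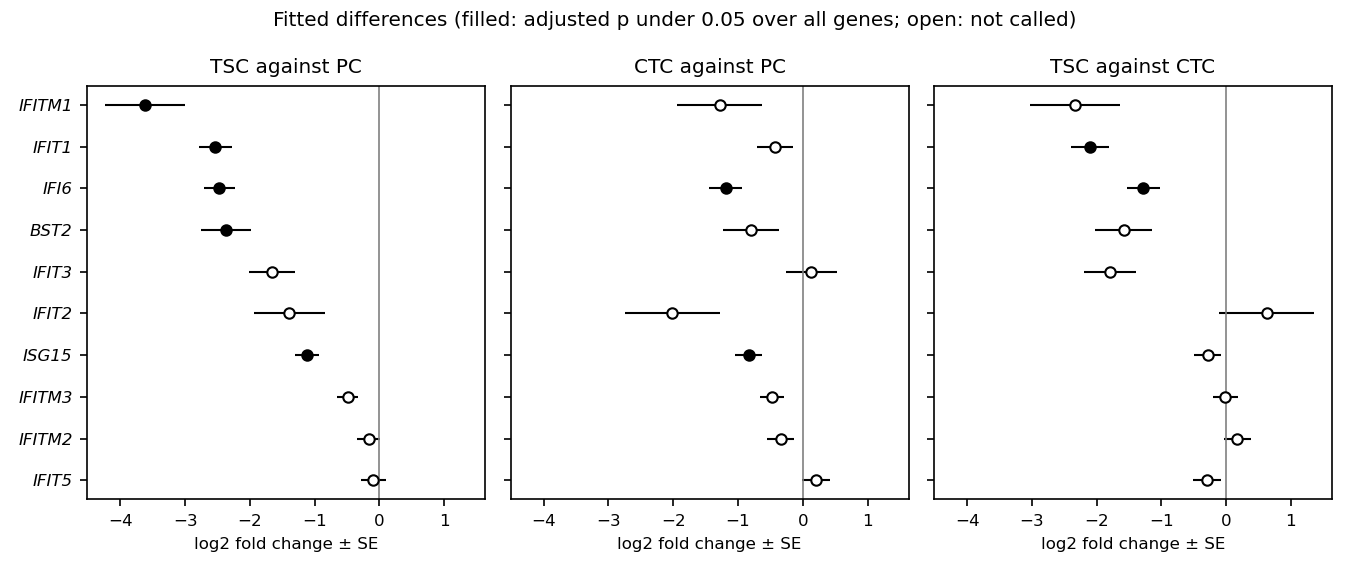
Fitted log2 fold change ± SE (horizontal axis) of the 10 genes in the 3 comparisons, which share libraries. Filled points were called at an adjusted p under 0.05 over all tested genes and open points were not. Filled points are IFITM1, IFIT1, IFI6, BST2 and ISG15 for TSC against PC, IFI6 and ISG15 for CTC against PC, and IFIT1 and IFI6 for TSC against CTC.

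CTC differed from PC less uniformly. Of the 10 genes 2, IFI6 (2.29-fold) and ISG15 (1.78-fold), were called lower and 0 higher, where 2.52% of tested genes were called lower and 1.4% higher. DESeq2 called 2 and 0 (4.86% and 3.03% of tested genes) and limma-voom 2 and 0 (6.66% and 4.99% of tested genes). At an unadjusted p under 0.05 in edgeR 4 were lower and 0 higher, against 13.9% and 9.67% of tested genes. In 7 genes both CTC libraries were below all PC libraries, as in 24.7% of tested genes, and in 0 above, as in 19.9% of tested genes. The median log2 difference was −0.64, against −0.16 for the wider pathway and −0.04 for all tested genes, and 8 of 10 values were negative, the exceptions being IFIT3 and IFIT5. Both calls rest on few libraries: 0 genes were called without PC replicate 1, PC replicate 2, CTC replicate 1 or CTC replicate 2, and 1 gene, IFI6, without TSC replicate 3 or PC replicate 3. Calls over all tested genes fell too, from 559 to 177 of 14046 without PC replicate 1 and 182 of 14133 without PC replicate 2. They were 285 of 14153 without TSC replicate 3 and 154 of 14125 without PC replicate 3. Leukocyte and erythroid markers were higher in CTC as given above, with PTPRC at 31.9 and 7.6 CPM and HBB at 164 and 209 CPM. The part of these cells in the differences was not tested.

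TSC and CTC are compared with the same PC libraries above, so their differences from PC are not independent. Set directly against CTC, TSC was lower for IFIT1 (4.29-fold) and IFI6 (2.43-fold), and these 2 of the 10 genes were called, with 0 called higher. At an unadjusted p under 0.05 in edgeR 5 were lower and 0 higher, against 6.36% and 10.3% of tested genes. DESeq2 called 4 and 0 (1.3% and 1.44% of tested genes), as did limma-voom (1.47% and 1.61% of tested genes). In this comparison 0.526% of tested genes were called lower and 0.372% higher. The TSC libraries were below both CTC libraries for 5 genes, IFIT1, IFIT3, IFITM1, IFI6 and BST2, as in 13% of tested genes. They were above both for 0 genes, as in 15.4% of tested genes. For IFITM1 the separation rests on 2 counts in CTC replicate 1, and for BST2 on a narrow margin to 14 counts there. The median log2 difference was −0.79, against −0.19 for the wider pathway and 0.06 for all tested genes. Without TSC replicate 3 or CTC replicate 2 only IFIT1 was called, and without TSC replicate 2, 4 genes were called, namely IFIT1, IFI6, IFIT3 and BST2. IFIT3 was called as well without TSC replicate 1 or PC replicate 3. Over all tested genes 128 calls became 36 without TSC replicate 3 and 95 without TSC replicate 2. They became 696 without TSC replicate 1 and 106 without PC replicate 3. The leukocyte and erythroid sums that set CTC apart stand on the other side of this comparison as well, and their part was not tested.

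By group means, 6 genes stood in the order TSC, CTC, PC from low to high, namely IFIT1, IFITM1, IFITM3, IFI6, ISG15 and BST2. IFIT2 and IFITM2 had the order CTC, TSC, PC, and IFIT3 and IFIT5 the order TSC, PC, CTC. Not all neighbours in these orders differ beyond their spread. For IFIT1, CTC (60.0 ± 23.8 CPM, SD, n = 2) and PC (77.0 ± 20.7 CPM, SD, n = 3) overlap, and for IFITM3, TSC (166 ± 21.5 CPM, SD, n = 3) and CTC (167 ± 18.6 CPM, SD, n = 2) are close to equal.

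Levels of different genes can be compared only per length of transcript. Per kilobase of exon (GENCODE v29), IFI6 led in PC with 543 ± 110 CPM per kb (SD, n = 3), followed by ISG15 with 358 ± 57.9 and IFITM3 with 173 ± 16.9. BST2 and IFITM2 followed at 30.8 ± 9.07 and 30.6 ± 2.52 CPM per kb, and their order does not exceed their spread. IFIT1 (16.7 ± 4.50), IFIT5 (14.2 ± 1.99) and IFITM1 (11 ± 2.95) also lay within each other's spread, and IFIT3 (5.90 ± 2.06) and IFIT2 (1.91 ± 1.20) were lowest. In TSC the leading gene was ISG15 with 165 ± 14.5 CPM per kb (SD, n = 3), then IFITM3 with 123 ± 15.9 and IFI6 with 97.6 ± 33.0, whose libraries overlap. IFIT5 stood at 13.3 ± 2.07 CPM per kb there, above IFIT1 at 2.87 ± 0.141.

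**Figure D3:**
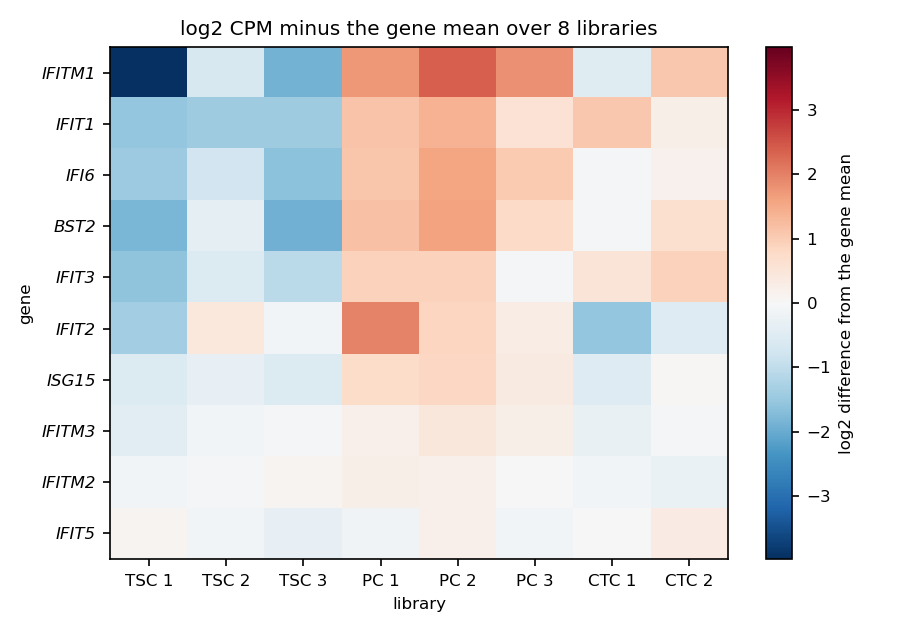
log2 CPM of each gene minus its mean over the 8 libraries (colour scale, red above and blue below the mean), with genes in rows and libraries in columns. The PC columns are red and the TSC columns blue for IFITM1, IFIT1, IFI6 and BST2, and the IFITM2 and IFIT5 rows are nearly white in all columns.

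Within groups the libraries also stood apart together. PC replicate 2 had the highest PC value for 8 of the 10 genes and PC replicate 3 the lowest for 7. TSC replicate 1 was lowest in its group for 7 genes and TSC replicate 2 highest for 6, and CTC replicate 1, the shallowest library, was below CTC replicate 2 for 8. Summed over the 10 genes, the level was 483, 595 and 510 CPM in TSC, 1257, 1515 and 1102 CPM in PC and 696 and 825 CPM in CTC.

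Over the 8 libraries, the log2 CPM of the 45 pairs of these genes correlated with a median Pearson r of 0.68, from −0.46 for IFIT5 with IFITM2 to 0.97 for IFI6 with BST2, and 17 pairs were over 0.8. The libraries share depth and group, so this describes how the rows run together and is no test. The 10 other genes most like the mean of the members were looked for among genes whose log2 CPM averaged at least 3. They were CEMIP2 (r = 0.96), SP110 (0.96), SP100 (0.94), GOLPH3L (0.94), KRT7 (0.94), PARP9 (0.94), OAS3 (0.93), DDX58 (0.93), ZNF182 (0.93) and GATAD1 (0.93), each over 8 libraries. SP100, PARP9, OAS3 and DDX58 are on the pathway lists described next. SP110, a nuclear body protein, had 18.9, 38.0 and 37.6 CPM in TSC, 75.7, 79.0 and 60.7 CPM in PC and 47.9 and 56.5 CPM in CTC.

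The rest of the interferon pathway was followed with 77 genes listed by role, also with earlier results known, so no p-value is given for them. Of these 6 were listed at 0 in all libraries, namely IRF9, CGAS, ZBP1, GBP1, RTP4 and CH25H, and 64 were tested. In TSC against PC, edgeR called 8 lower and 0 higher, DESeq2 12 and 0, and limma-voom 16 and 1, and at an unadjusted p under 0.05 in edgeR 24 were lower and 2 higher. As shares of the 64 genes, those lower were 12.5% by edgeR, 18.8% by DESeq2, 25% by limma-voom and 37.5% without adjustment. The shares of all tested genes were 0.281%, 0.765%, 2.09% and 5.25% lower, and 0.224%, 0.575%, 1.79% and 5.05% higher. In CTC against PC, edgeR called 4 lower and 0 higher, DESeq2 6 and 1, and limma-voom 8 and 1, with 16 lower and 5 higher at an unadjusted p under 0.05. Those lower in CTC than in PC were 6.25% of the 64 genes by edgeR, 9.38% by DESeq2, 12.5% by limma-voom and 25% without adjustment. The shares of all tested genes were 2.52%, 4.86%, 6.66% and 13.9%. Those higher were 0%, 1.56%, 1.56% and 7.81% of the 64 genes in the same order, against 1.4%, 3.03%, 4.99% and 9.67% of all tested genes. In TSC against CTC edgeR called 0, DESeq2 2 lower and limma-voom 3 lower, with 15 lower and 3 higher at an unadjusted p under 0.05. Those lower were 0%, 3.1%, 4.69% and 23.4% of the 64 genes in the same order, against 0.526%, 1.3%, 1.47% and 6.36% of all tested genes. Without adjustment 4.69% of the 64 genes were higher, against 10.3% of all tested genes. The shares of all tested genes apply also to the lists by role and the neighbouring genes below.

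Ligands could not be compared. Of 21 interferon genes 18 were at 0 in all libraries, IFNB1 and IFNG among them, and IFNE, IFNL1 and IFNL2 had too few counts to be tested. Of the 6 receptor chains 0 were called in any comparison by edgeR, DESeq2 or limma-voom, and 1 was lower in TSC than in PC at an unadjusted p under 0.05 in edgeR. IFNAR1, a chain of the type I receptor, had 39.4, 35.7 and 36.6 CPM in TSC, 48.3, 44.6 and 44.9 CPM in PC and 25.9 and 50.3 CPM in CTC, a log2 difference of −0.30 ± 0.21 between TSC and PC.

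Among the kinases and transcription factors, STAT2 stood between 24.8 and 25.0 CPM in TSC and between 34.5 and 36.2 CPM in PC without being called (−0.52 ± 0.19), and IRF9, its partner, is listed at 0. JAK1 (0.17 ± 0.17) and TYK2 (−0.33 ± 0.22) were not called. Of the 10 tested genes of this list, edgeR called 1 lower and 0 higher in TSC than in PC. DESeq2 and limma-voom each called 1 lower and 0 higher. At an unadjusted p under 0.05 in edgeR 2 were lower and 1 higher. Of 8 genes listed as inhibitors 0 were called. These 8 include ISG20, an exonuclease rather than an inhibitor, which is named for that reason alone and after its values were seen. Among the inhibitors is USP18, which blocks the type I receptor and removes ISG15 from proteins, which lay between 5.43 and 8.32 CPM in TSC and between 14.2 and 15.5 CPM in PC (−1.13 ± 0.28). For TSC against PC, 1 gene of the list was lower and 1 higher at an unadjusted p under 0.05 in edgeR. DESeq2 called 1 lower, and limma-voom called 1 in each direction. Of the 8 fitted differences between TSC and PC 5 were negative, USP18 among them, and the median was −0.13.

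Of 8 tested sensors and adaptors, the RNA sensors DDX58 (RIG-I) and IFIH1 (MDA5) were lower in TSC. DDX58 had 29.6, 29.9 and 25.6 CPM in TSC and 70.6, 69.8 and 60.8 CPM in PC (log2 difference −1.24 ± 0.20). IFIH1 had 24.7, 20.3 and 15 CPM against 39.0, 44.8 and 39.0 CPM (−1.05 ± 0.22). In neither gene did the TSC and PC libraries overlap. ADAR, an RNA-editing enzyme, EIF2AK2 (PKR), a kinase that stops translation, and MAVS, the adaptor of both sensors, had log2 differences of −0.49 ± 0.16, −0.74 ± 0.16 and −0.39 ± 0.30 and were not called.

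The enzymes that attach ISG15 or remove it had 0 called of 4 tested, with all 4 values negative in TSC against PC (median −0.94). USP18 is among these 4 and is also counted on the list of inhibitors. At an unadjusted p under 0.05 in edgeR 3 were lower, and DESeq2 called 1 and limma-voom 2. HERC5, the ligase, had 28.3, 15 and 13.7 CPM in TSC and 37.4, 36.1 and 31.8 CPM in PC. Of the 4 tested genes of the 2-5A system, in which OAS enzymes sense double-stranded RNA and make a second messenger, OAS1 and OAS3 were lower in TSC. OAS1 gave 8.02, 9.18 and 4.88 CPM against 24.5, 31.6 and 24.8 CPM in PC (−1.87 ± 0.29). OAS3 gave 113, 167 and 144 CPM in TSC, 273, 301 and 286 CPM in PC and 151 and 173 CPM in CTC, and was called lower also in CTC (−0.82 ± 0.20).

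Of 25 other tested interferon-stimulated genes, 3 were lower in TSC than in PC. They are PARP9 (−1.24 ± 0.19), an ADP-ribosyltransferase family member, SP100 (−1.15 ± 0.20), a nuclear body protein, and LAMP3 (−1.78 ± 0.33), a lysosomal membrane protein. In CTC against PC the called ones were LAMP3 (−2.66 ± 0.46), IFI44 (−2.84 ± 0.72) and LGALS3BP (−0.84 ± 0.22), a secreted galectin-binding protein. In CTC replicate 1 IFI44 had 1 count and LAMP3 had 3, at or under the floor of that library, so the size of these differences is uncertain. TRIM25, the ligase that activates DDX58, had a log2 difference of −0.06 ± 0.23 between TSC and PC. The pathway counts depend on single libraries, and so do the calls over all tested genes. For TSC against PC the latter fell from 72 to 16 of 14153 genes without TSC replicate 3. They were 10 of 14133 without PC replicate 2, 25 of 14046 without PC replicate 1 and 30 of 14125 without PC replicate 3. For CTC against PC they rose from 559 to 1575 of 14169 without TSC replicate 1 and 1054 of 14141 without TSC replicate 2. Counts of pathway genes alone follow. For TSC against PC, 0 genes were called without TSC replicate 3 or PC replicate 2, 2 without PC replicate 1, 4 without PC replicate 3 and up to 10 in the other fits that leave out a library. For CTC against PC, 0 were called without CTC replicate 2, 9 without TSC replicate 1, 7 without TSC replicate 2 and 1 without any single one of the other libraries.

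**Figure D4:**
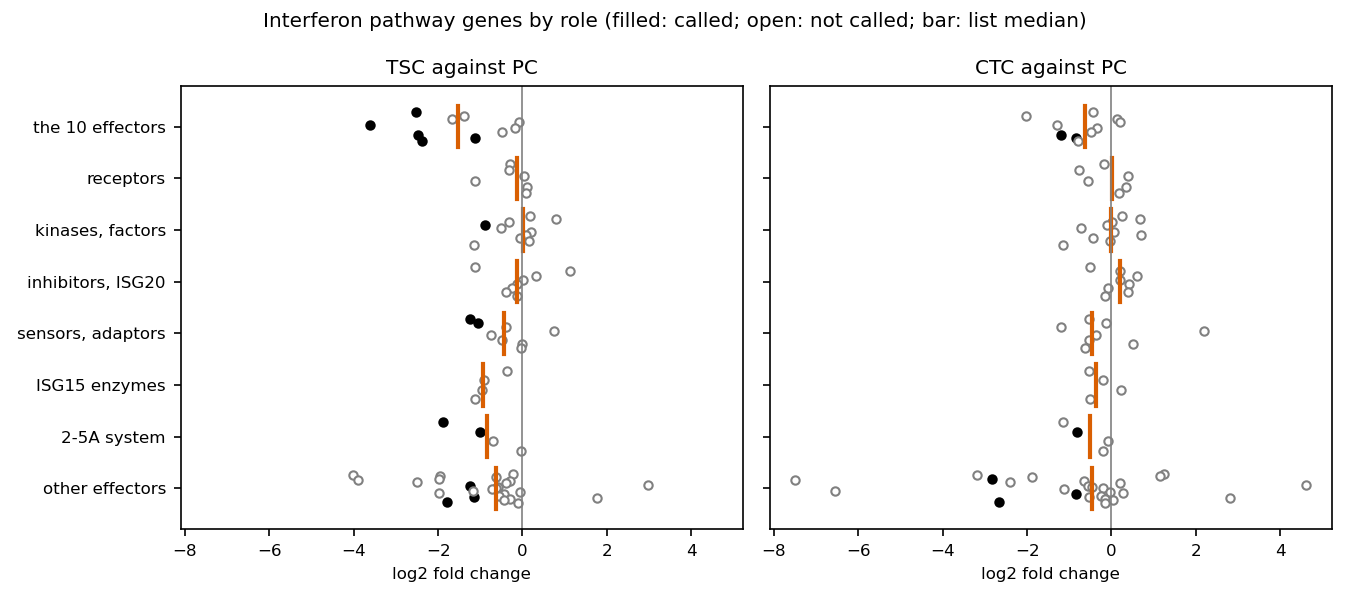
log2 fold change (horizontal axis) of the 10 genes and of the tested pathway genes by role, for TSC against PC (left) and CTC against PC (right). Each point is a gene, filled where called, and the orange bar is the median of the list. The bar of the 10 effectors stands at −1.53 on the left and −0.64 on the right, and the bars of the receptors and of the kinases lie between −0.13 and 0.01.

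Genes beside the 5 loci were compared as well. Up to 3 annotated genes on each side of each locus were taken, and 12 of them were tested. In TSC against PC edgeR called 0 of these (1 lower at an unadjusted p under 0.05, 1 by DESeq2 and 2 by limma-voom). Among them are LIPA (0.40 ± 0.20), whose annotated span overlaps the IFIT cluster, and PKP3 (0.04 ± 0.25), beside the IFITM genes. HES4 (−0.34 ± 0.25), beside ISG15, and MVB12A (0.05 ± 0.22), beside BST2, were not called either. AGRN, next to ISG15, was called lower in CTC than in PC (−1.64 ± 0.35) and had a log2 difference of −0.96 ± 0.28 between TSC and PC. Its call was lost without PC replicate 1, PC replicate 3 or CTC replicate 2. Of other members of the 2 families, IFIT1B, IFITM4P and IFITM5 were at 0 in all libraries. IFITM10 had at most 1.99 CPM in any library and was not called in any comparison (−0.37 ± 0.95 for TSC against PC).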

How the data were processed

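Per the labels' protocols, total RNA of 8 HCT116 libraries was depleted of ribosomal RNA and sequenced. The deposited values are raw counts per gene, made by the authors with STAR 2.5.3a and featureCounts 1.5.3 on hg38, per the submitters' processing notes; annotation, strand setting and treatment of reads with several positions are not stated in them. Groups follow the sample titles. The 10 genes and the pathway, marker and family lists were chosen with earlier results of these data known. All libraries entered 1 edgeR 4.0.16 fit in R 4.3.3 (filterByExpr by group, TMM, glmQLFit, glmQLFTest, group factor), with Benjamini-Hochberg adjustment over 14255 genes and calls at 0.05. The SE is the size of the log2 fold change divided by the square root of F. The script was tested on simulated counts with 100 genes changed 2-fold and 100 changed 4-fold in each comparison. For TSC against PC, CTC against PC and TSC against CTC it called 32, 27 and 21 of the 2-fold changes. Of the 4-fold changes it called 69, 64 and 69. A gene that was not called is therefore not read as unchanged. Of 28 pairs of libraries, 0 agreed within sampling noise. Total counts per library ran from 957607 to 19264595.

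Genes named are the 10 members, called pathway genes, up to 3 uncalled genes per list with the largest average CPM, IRF9, STAT2 and USP18, the 10 genes most like the members, and neighbours. Alternatives were DESeq2 1.42.0 size factors and its Wald test, limma-voom (limma 3.58.1), other filters, only the groups compared, a replicate block, each library left out, and thinning to the shallowest library. Thinning was changed to a binomial draw per gene after a first method, edgeR's thinCounts, had been run and seen to return overdispersed counts. The motifs, the 50-base windows and the rules for when a value counts as moved were set after the data were seen. Some genes that this rule gives are not reported here.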

Additional observations from a re-analysis of the deposited data

How the results depend on the processing

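Each of 16 other settings was applied to the 3 comparisons. IFIT1 and IFI6 were called lower in TSC than in PC in 16 of 16, BST2 in 14, ISG15 in 13 and IFITM1 in 12 of 15 (IFIT2 and IFITM1 have no thinned value, having failed the filter there). With a library left out, members called ranged from 2 to 6 for TSC against PC, 0 to 2 for CTC against PC and 1 to 4 for TSC against CTC, and pathway genes from 0 to 10, 0 to 9 and 0 to 4. The median of the members for TSC against PC ranged from −1.91 to −1.30 and was −1.09 after thinning. For TSC against PC, pathway calls were 15 with no filter and 17 by limma-voom. For CTC against PC, thinning left 1 member and 0 pathway genes, pathway calls were 9 with no filter, 2 with the stricter filter, 7 by the DESeq2 Wald test, 9 by limma-voom, 8 with only those groups and 1 with the replicate block. For TSC against CTC, members called were 5 with no filter, 4 by DESeq2 and 4 by limma-voom, and pathway genes 5, 2 and 3, with 2 after thinning. Changes of sign were limited to values that were not called. IFIT5 gave 0.12 for TSC against PC and 0.11 for TSC against CTC after thinning, IFIT3 −0.084 for CTC against PC with the replicate block, and IFITM3 0.0064 with no filter and 0.018 by limma-voom for TSC against CTC. With a library left out, IFIT5 ranged from −0.23 to 0.016 for TSC against PC and from −0.0093 to 0.33 for CTC against PC, IFIT3 from −0.16 to 0.29 for CTC against PC, and IFITM3 from −0.11 to 0.12 and ISG15 from −0.51 to 0.037 for TSC against CTC. The cause was not tested. Over all genes, 72 calls for TSC against PC, 559 for CTC against PC and 128 for TSC against CTC became 355, 1535 and 728 with no filter, 191, 1125 and 390 by DESeq2, 553, 1660 and 440 by limma-voom, 128, 1409 and 82 with only the groups compared, 67, 428 and 58 with the stricter filter, 67, 261 and 61 with the replicate block and 45, 204 and 49 after thinning. With a library left out they ranged from 10 to 153, 35 to 1575 and 36 to 696. Over all tested genes, same-numbered libraries did not deviate together (7 correlations from −0.13 to 0.09), so the numbers were not used as pairs. Summed over the 10 genes, though, replicate 2 was highest in each group, with 595 CPM in TSC, 1515 in PC and 825 in CTC. With the replicate block 5, 2 and 2 members were called for TSC against PC, CTC against PC and TSC against CTC. CTC replicate 1, the shallowest library, limits what can be seen of IFIT2, IFITM1, IFI44 and LAMP3, and of BST2 for TSC against CTC.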
